A study of Mus musculus with 10 samples.

Results

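Small leucine-rich proteoglycans are short matrix proteins whose curved core of leucine-rich repeats binds collagen. The genes followed here are 8 members of that family, osteoglycin (Ogn), osteomodulin (Omd), asporin (Aspn), decorin (Dcn), lumican (Lum), fibromodulin (Fmod), prolargin (Prelp) and biglycan (Bgn), out of 16860 genes in primary smooth muscle cells of the mouse aorta. All 8 had a value on every array. They were taken by Ensembl identifier, with Ogn first because it was already known to lie further below baseline after cholesterol loading than any other gene. The others are its relatives and were listed with those results known. The deposited table carries identifiers only, so each symbol is the one that came with this list.

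The arrays were of the type Affymetrix Mouse Genome 430 2.0, 6 in all, with 2 in each of 3 groups. Cells of all groups were isolated from thoracic aorta of C57BL/6 mice 8 weeks of age, were passaged at most 5 times and grew in 10% fetal bovine serum. Baseline cells had no stimulus. Cholesterol cells received 10 µg/mL cholesterol complexed with methyl-β-cyclodextrin (molar ratio 1 to 6) over 72 h. HDL cells had the same loading followed by a further 72 h in 100 µg/mL human high-density lipoprotein (HDL), and were harvested 144 h after loading began. No carrier control, no untreated control at the later times and no loaded cells kept without HDL were analysed here, so cholesterol, carrier and time in culture cannot be told apart. Whether 1 isolate of cells, or mice of 1 sex, gave both the baseline and the loaded cells is not in the labels. A difference in isolate or sex therefore cannot be told apart from loading either. The labels also do not state that the arrays of a group stand for separate cultures. The p-values thus cover only the spread between arrays, which may be technical.

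In the artery wall these proteins coat collagen fibrils and set their width and spacing. Several also bind growth factors of the TGF-β family, and biglycan and decorin carry chondroitin or dermatan sulfate chains that can hold lipoproteins in the intima. Lumican, fibromodulin and osteomodulin carry keratan sulfate, prolargin anchors collagen to basement membranes through heparan sulfate, and asporin has a stretch of aspartic acids in place of sugar chains near its amino end. Osteoglycin, also called mimecan, is known as a matrix product of quiescent arterial smooth muscle, and osteomodulin as a product of bone-forming cells.

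The family lies in gene clusters. In the RefSeq annotation of the mouse assembly GRCm38.p6, Aspn, Omd and Ogn follow each other on chromosome 13 with no other protein-coding gene between them. Dcn and Lum are neighbours on chromosome 10, Prelp and Fmod on chromosome 1, and Bgn lies on the X chromosome. The promoter windows of the chromosome 13 neighbours are shown because Ogn and Omd both lay far below baseline after loading while Aspn did not. Each is RefSeq sequence of GRCm38.p6 on the plus strand, with 250 bases before and 50 after the gene's start. Capitals mark matches to TATAAA on either strand.
Ogn, chr13:49607765-49608064: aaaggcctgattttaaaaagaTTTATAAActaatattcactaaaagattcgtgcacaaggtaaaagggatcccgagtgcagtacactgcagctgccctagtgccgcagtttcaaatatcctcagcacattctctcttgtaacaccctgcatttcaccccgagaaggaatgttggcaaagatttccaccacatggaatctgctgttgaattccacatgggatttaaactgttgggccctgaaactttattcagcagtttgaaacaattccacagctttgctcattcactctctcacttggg
Omd, chr13:49582212-49582511: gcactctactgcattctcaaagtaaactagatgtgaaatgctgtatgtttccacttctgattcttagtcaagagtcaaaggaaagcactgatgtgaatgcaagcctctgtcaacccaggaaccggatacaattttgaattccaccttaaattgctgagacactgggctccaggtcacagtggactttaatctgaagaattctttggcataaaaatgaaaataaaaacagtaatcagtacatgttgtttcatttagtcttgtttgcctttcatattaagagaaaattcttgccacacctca
Aspn, chr13:49544193-49544492: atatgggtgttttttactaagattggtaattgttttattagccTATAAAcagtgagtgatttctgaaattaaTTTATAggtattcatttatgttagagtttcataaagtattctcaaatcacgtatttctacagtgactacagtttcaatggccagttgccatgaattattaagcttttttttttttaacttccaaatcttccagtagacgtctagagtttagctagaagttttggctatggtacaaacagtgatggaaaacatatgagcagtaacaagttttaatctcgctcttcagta
RefSeq windows were held for 6 of the 8 genes. TATAAA was found in the Ogn window, where a match on each strand overlaps into 1 run of capitals beginning at position -229 from the start site, and in the Aspn window at positions -207 and -178, all well upstream of where a TATA box usually lies. The Omd window held none, nor did those of Fmod, Prelp and Bgn. Of all 32851 RefSeq windows 13.6% held TATAAA. The E-box letters CANNTG, which read the same on both strands, matched 4 times in the Ogn window, 2 times in the Aspn window and not in the Omd window, and 72.3% of all windows held them. The AP-1 letters TGANTCA, held by 7.81% of all windows, and the CArG box bound by serum response factor, held by 1.63%, had no match in any of the 6 windows. GC content was 42.3% for Ogn, 37.7% for Omd and 31% for Aspn, each below the lower quartile of 45.7% of all windows, and 51% for Fmod, 55.3% for Prelp and 63.7% for Bgn. These matches describe letters, and nothing is drawn from them about any factor.

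Levels are log2 values after Robust Multichip Average (RMA) processing, in which the authors brought all 6 arrays to one distribution. A difference of 1 is thus a 2-fold difference in RMA signal. The median over all genes lay between 6.93 and 6.98 on the arrays and the highest value between 14.9 and 15.1, which gives a scale for dim and bright probes, though levels of different genes are not comparable on an array. The SD over all genes of the difference between the 2 arrays of a group was 0.17 at baseline, 0.18 after cholesterol and 0.27 after HDL. Smooth muscle and other marker lists fixed by symbol were not matched to the identifiers, so the labelled cell type was not checked against its markers.

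**Figure D1:**
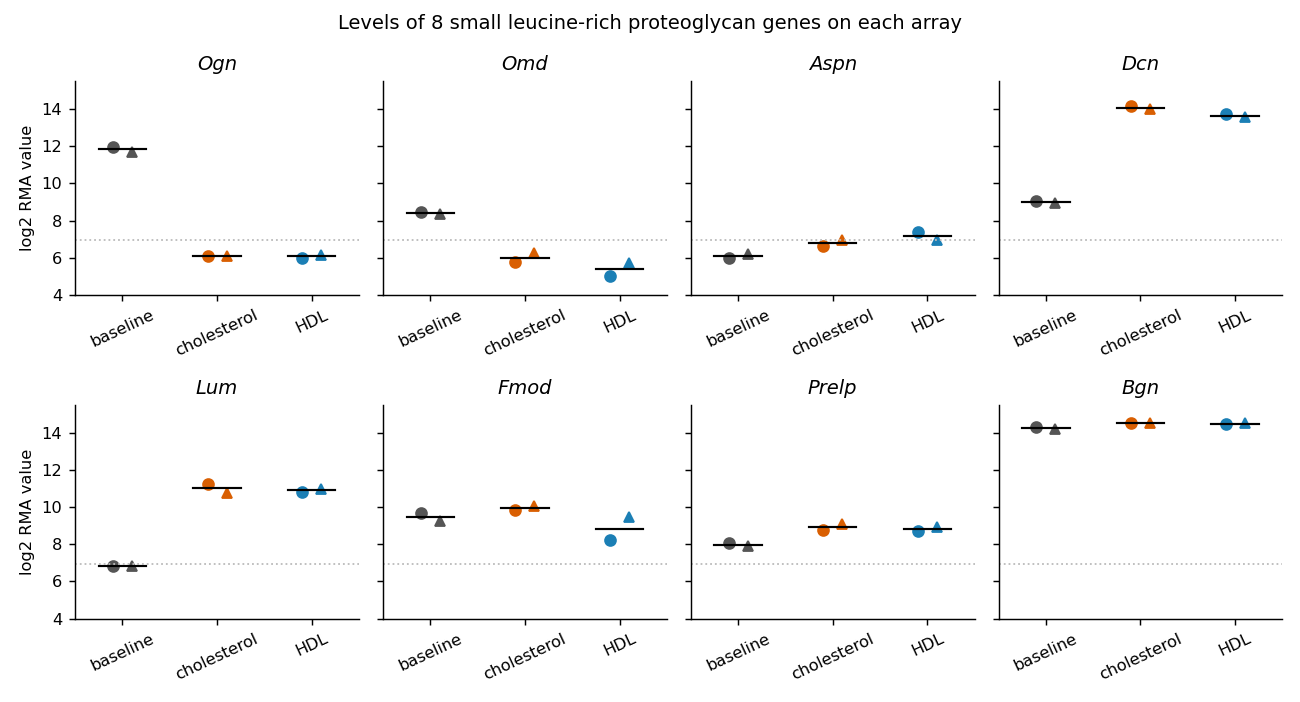
Level of each gene on each of the 6 arrays. The vertical axis is the log2 RMA value, circles are replicate 1, triangles replicate 2, horizontal bars the mean of the 2 arrays, and the dotted line the median level of all genes over the arrays. Ogn and Omd lie high at baseline and low in both loaded groups, Dcn and Lum the other way round, and Bgn lies between 14.18 and 14.51 on every array.

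Ogn (ENSMUSG00000021390_at) was bright in baseline cells and dim in all loaded cells. Its log2 values were 11.95 and 11.70 at baseline, 6.09 and 6.07 after cholesterol, and 6.00 and 6.17 after HDL. All 4 arrays of loaded cells lay below the array medians, and none overlapped with baseline. The mean differed from baseline by -5.75 ± 0.12 (SE of the fit, n = 2 arrays a group) after cholesterol, a 53.7-fold lower RMA signal, and by -5.74 ± 0.12 after HDL. This was the lowest difference of all 16860 genes in both comparisons with baseline, which share the baseline arrays. Because Ogn was chosen for it, no test is given. RMA values have no detection call, so whether the signal left in loaded cells stood above background was not tested. Less RNA per cell and fewer cells that express the gene cannot be told apart in bulk RNA, here or for the genes below.

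Omd (ENSMUSG00000048368_at), the next gene upstream of Ogn, was lower in the loaded cells too. Its log2 values were 8.45 and 8.36 at baseline, 5.75 and 6.25 after cholesterol, and 5.03 and 5.72 after HDL. The baseline arrays lay apart from the others, and both HDL arrays lay below both cholesterol arrays. The mean was lower than baseline by 5.32-fold after cholesterol (log2 difference -2.41 ± 0.24, SE, n = 2) and by 8.17-fold after HDL (-3.03 ± 0.24, SE, n = 2). In size the first ranked 48 and the second 10 from the bottom of all genes. The arrays within a loaded group were far apart for this gene: they differed by 0.50 after cholesterol, more than for all but 1.65% of genes, and by 0.69 after HDL. That spread depends on the normalization, since the same cholesterol arrays gave a mean of 6.02 ± 0.08 (SD, n = 2) when the authors normalized them with the baseline arrays alone.

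Aspn (ENSMUSG00000021388_at), whose protein binds collagen and TGF-β1, went the other way from Omd and Ogn. Its log2 values were 6.00 and 6.20 at baseline, 6.63 and 6.93 after cholesterol, and 7.36 and 6.93 after HDL. Every loaded array lay above both baseline arrays. The difference from baseline was 0.68 ± 0.17 (SE, n = 2) after cholesterol and 1.04 ± 0.17 after HDL, or 1.6-fold and 2.06-fold. The 3 adjacent genes thus spanned differences from -5.75 to 0.68 in the same cells after cholesterol.

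Dcn (ENSMUSG00000019929_at), a proteoglycan that binds collagen and TGF-β, had the largest difference in the positive direction among the 8. Its log2 values were 9.03 and 8.95 at baseline, 14.16 and 13.98 after cholesterol, and 13.71 and 13.56 after HDL. Loaded cells lay near the highest values of the arrays, and the 3 groups did not overlap; whether saturation bears on these values was not tested. The mean was 33.8-fold higher than baseline after cholesterol (5.08 ± 0.11, SE, n = 2), ranking 15 from the top of all genes, and 25.1-fold higher after HDL (4.65 ± 0.11, SE), ranking 18.

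Lum (ENSMUSG00000036446_at), its neighbour on chromosome 10 and a keratan sulfate proteoglycan that limits fibril growth, was also higher, by a smaller fold. Its log2 values were 6.81 and 6.82 at baseline, 11.25 and 10.77 after cholesterol, and 10.83 and 10.98 after HDL. Baseline lay just below the array medians and far below any loaded array, and the cholesterol and HDL arrays overlapped. The difference from baseline was 4.20 ± 0.16 (SE, n = 2) after cholesterol, or 18.3-fold, and 4.09 ± 0.16 after HDL, or 17-fold. These ranked 23 and 38 from the top of all genes. The cholesterol arrays of Lum differed by 0.48, a gap exceeded by 1.9% of genes.

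**Figure D2:**
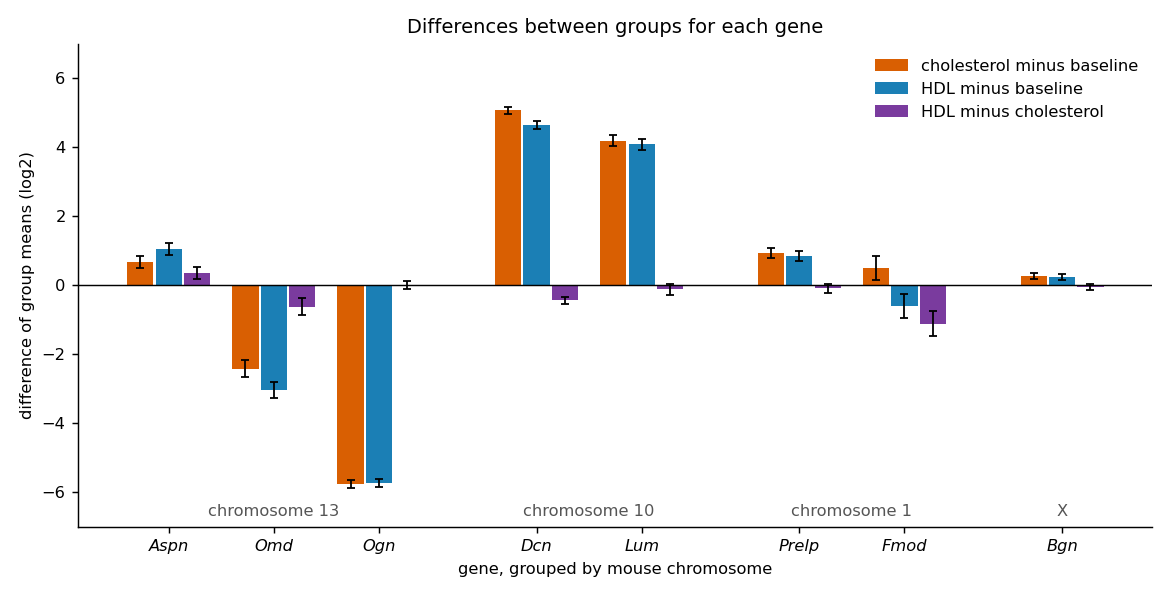
Difference of group means for each gene on the log2 scale, with genes grouped by chromosome and in the order in which they lie there. Bars start at 0, error bars are the SE of the fit (2 arrays a group), and colours are the comparisons. Omd and Ogn lie below 0 against baseline, beside Aspn above 0, Dcn and Lum lie above 4, and the bars of HDL against cholesterol stay between -1.11 and 0.36.

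Against baseline, the RMA signal of the other genes differed less than that of Ogn, Omd, Dcn and Lum. Prelp (ENSMUSG00000041577_at), which links collagen to basement membranes, had log2 values of 8.06 and 7.89 at baseline, 8.74 and 9.08 after cholesterol, and 8.73 and 8.91 after HDL. Loaded arrays lay above baseline without overlap, by 0.94 ± 0.14 (SE, n = 2) after cholesterol and 0.85 ± 0.14 after HDL. Bgn (ENSMUSG00000031375_at), a proteoglycan that can hold lipoproteins in the artery wall, had log2 values of 14.28 and 14.18 at baseline, 14.50 and 14.51 after cholesterol, and 14.45 and 14.50 after HDL. All of these lie near the highest values of the arrays, and whether saturation bears on them was not tested. The differences of 0.28 ± 0.09 and 0.24 ± 0.09 (SE, n = 2) did not pass an adjusted p of 0.05 in limma over all genes.

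Fmod (ENSMUSG00000041559_at), which competes with lumican for the same collagen site, varied most within a group. Its log2 values were 9.66 and 9.23 at baseline, 9.86 and 10.04 after cholesterol, and 8.24 and 9.45 after HDL. The HDL arrays lay 1.21 apart, and only 71 of 16860 genes had a larger gap between them. Replicate 2 fell inside the baseline range and replicate 1 below every other array. Fmod differed from baseline by 0.51 ± 0.35 (SE, n = 2) after cholesterol and by -0.60 ± 0.35 after HDL, neither past that threshold. The value after HDL depends on which array is kept: it was -1.20, and past the threshold, without HDL replicate 2, -0.39 without baseline replicate 1, and 0.0016 without HDL replicate 1.

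**Figure D3:**
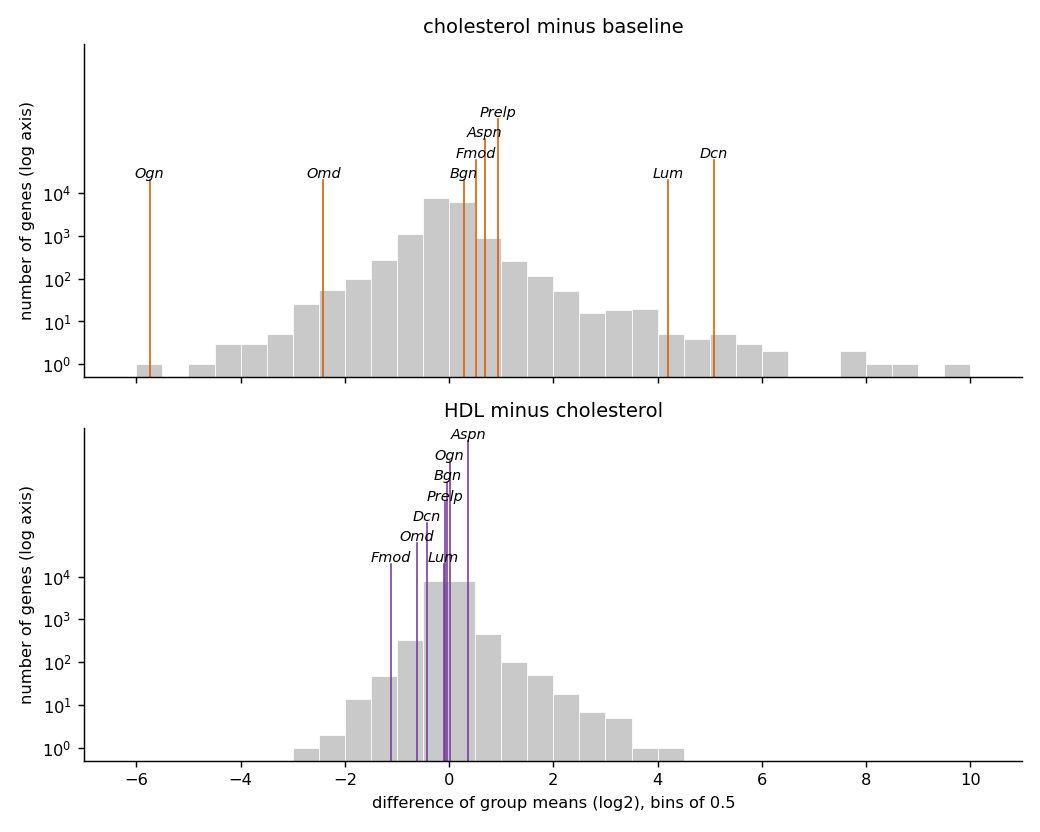
Number of genes (log axis) by difference of group means, in bins of 0.5 on the log2 scale, for cholesterol minus baseline (top) and HDL minus cholesterol (bottom). Vertical lines mark the 8 genes, at heights chosen only to keep their names apart. Ogn is alone in the lowest filled bin of the top panel, Dcn and Lum lie in the sparse upper tail, and in the bottom panel all 8 lie between -1.11 and 0.36.

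Read over the 8 genes, 6 lay above baseline after cholesterol and 2 below, with a median difference of 0.60 where all genes had -0.03. Of the 8, 6 passed an adjusted p of 0.05 in limma against baseline, while 23.5% of all genes did. Of these Aspn, Dcn, Lum and Prelp were higher, as were 10.4% of all genes, and Ogn and Omd lower, as were 13.1%. The arrays of the groups did not overlap for 8 of the 8, nor for 63.5% of all genes. After HDL the same 6 passed in the same directions, against 20.0% of all genes (9.13% higher and 10.9% lower). The arrays did not overlap for 7 of the 8, all but Fmod, nor for 59.1% of all genes, and the median difference from baseline was 0.55 where all genes had -0.02. Some of these calls hung on single arrays or settings. Aspn was lost for cholesterol without any 1 of the 4 baseline and cholesterol arrays, and for HDL without baseline replicate 1, while Prelp was lost for HDL without baseline replicate 2. Fmod passed for cholesterol when those 4 arrays were fitted alone and for HDL without HDL replicate 2. Bgn passed in both comparisons with a mean-variance trend, and for cholesterol with array weights. The unmoderated one-way test per gene called none of the 8. The list was drawn up with these comparisons known, so nothing is read from those counts.

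HDL-treated cells were then compared with cholesterol-loaded cells, to ask whether HDL, an acceptor of cell cholesterol, moved these genes back. This comparison was not the one that singled out Ogn, though it shares the cholesterol arrays, and it was tested with limma over all 16860 genes, with p adjusted by the Benjamini-Hochberg method. None of the 8 genes passed an adjusted p of 0.05, against 2.73% of all genes, or 461 genes. Adjusted p-values ran from 0.0901 to 0.983, and 3 of the 8 (Omd, Dcn and Fmod) had an unadjusted p under 0.05, as did 3034 of all genes. The arrays of the 2 groups did not overlap for 4 of the 8 genes, Omd, Dcn, Fmod and Bgn, all lower after HDL, where 47.0% of all genes did not overlap in either direction and 22.4% were lower. The median difference of the 8 was -0.10, and that of all genes 0.00375.

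Ogn showed no detectable return. HDL minus cholesterol was 0.01 ± 0.12 (SE, n = 2; limma adjusted p = 0.983), with a 95% interval of -0.26 to 0.28, whereas the gap to baseline was 5.75. On the linear scale that interval runs from 0.833 to 1.21 times the RMA signal after cholesterol. Whether that dim signal stood above background was not tested, so the interval sets no limit on the change in RNA. Omd had a lower mean after HDL, away from baseline, by -0.62 ± 0.24 (limma adjusted p = 0.242, 95% interval -1.19 to -0.05). Aspn had a higher mean, also away from baseline, by 0.36 ± 0.17 (limma adjusted p = 0.331, 95% interval -0.04 to 0.77).

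Dcn came nearest to the threshold. Its mean after HDL was 1.35-fold lower than after cholesterol, a log2 difference of -0.43 ± 0.11 (SE, n = 2; limma adjusted p = 0.0901), toward baseline. The 95% interval, -0.68 to -0.18, is small beside the difference of 5.08 between cholesterol and baseline cells. Lum differed by -0.11 ± 0.16 (limma adjusted p = 0.8, 95% interval -0.48 to 0.27) and Prelp by -0.09 ± 0.14 (limma adjusted p = 0.819, 95% interval -0.41 to 0.24). Bgn differed by -0.04 ± 0.09 (limma adjusted p = 0.895, 95% interval -0.24 to 0.17).

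Fmod had the largest difference of the 8 after HDL, -1.11 ± 0.35 (SE, n = 2; limma adjusted p = 0.164, 95% interval -1.95 to -0.27), a 2.16-fold lower mean. In size only 197 of all genes differed more. The value rests on HDL replicate 1: without HDL replicate 2 the difference was -1.71 and passed (limma adjusted p = 0.00249), and without HDL replicate 1 it was -0.51 (limma adjusted p = 0.238). Omd also passed without HDL replicate 2, at -0.96 (limma adjusted p = 0.0256). That setting called 1656 genes in all in place of 461, and it takes the lone HDL array to vary as the other groups do. HDL treatment and the 72 h of extra culture cannot be told apart.

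No other gene among the 8 followed Ogn closely, and family members outside this list were not matched to identifiers. With each gene's own baseline mean subtracted, the root mean square distance of log2 values from Ogn over the 6 arrays was 2.49 for Omd and between 4.68 and 8.66 for the other 6. Of all genes outside the list of 8, ENSMUSG00000069045_at was nearest, at 0.63. Its log2 values were 8.82 and 8.73 at baseline, 3.70 and 3.86 after cholesterol, and 3.75 and 3.87 after HDL. ENSMUSG00000013584_at came next at 1.41. The files give no name for these identifiers. Whether ENSMUSG00000069045_at is sex-linked was not checked, and the labels give no sex. A difference in isolate or sex between baseline and loaded cells therefore cannot be told apart from loading, for this gene or for any of the 8 differences from baseline. Both were nearest because they too lay far below baseline in all loaded arrays, and the measure says nothing of shared control.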

How the data were processed

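The log2 values deposited by the authors are RMA output, background-adjusted, normalized and combined to 1 value per gene through a University of Michigan custom mapping (Ensembl release 59), per the labels and design text. The RMA version and the genome build are not stated in these sources. The authors ran RMA once over the 4 baseline and cholesterol arrays and once over all 6, so the 10 deposited columns hold 6 arrays. The second run was used here, since it holds all groups, and the first as an alternative. RMA hides changes in total RNA and compresses dim genes, and the number of arrays limits precision.

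One limma 3.58.1 fit (R 4.3.3, lmFit and eBayes, two-sided) over the 3 groups was used for all comparisons, with no filter and 3 residual plus 4.03 prior degrees of freedom. It was tested on simulated data. Calls needed an adjusted p under 0.05 (Benjamini-Hochberg, over 16860 genes), and intervals are unadjusted 95% intervals of that fit. All 8 members are named, and beyond them only the 3 genes nearest to Ogn, reduced to 2 because the identifiers carry no symbol. For the same reason 12 lists of 137 symbols, for related genes and cell type markers, were not matched and not tested. The members and lists were chosen with earlier results of these data known. RefSeq promoter windows were matched by symbol. Alternatives covered the first normalization, the groups fitted, an unmoderated test, a filter, centring, a variance trend, array weights, a replicate block and leaving out each array.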

Additional observations from a re-analysis of the deposited data

How the results depend on the processing

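With each array left out in turn, 5 to 7 of the 8 genes were called in each comparison with baseline and 0 to 2 between HDL and cholesterol. Differences near 0 for HDL against cholesterol turned sign without being called: Ogn was at -0.0073 with each array's median subtracted. Without each array in turn, in that comparison, Ogn ranged from -0.077 to 0.095, Lum from -0.35 to 0.13 and Prelp from -0.26 to 0.081. Against baseline after HDL, Fmod ranged from -1.20 (without HDL replicate 2) to 0.0016 (without HDL replicate 1). The authors' design text names an unmoderated one-way test per gene. It was run here on values of the 3-group normalization, with only the arrays of the groups compared. Without the remaining group and without moderation it had fewer degrees of freedom than the main fit. This one-way test called none of the 8 genes in any comparison. Over all genes it gave 3 genes after cholesterol and 0 after HDL against baseline (3391 at an unadjusted p under 0.05) and 0 for HDL against cholesterol (1577 at an unadjusted p under 0.05). The count for HDL against cholesterol was 145 with those groups alone. Without each array in turn it was 74 (without cholesterol replicate 1) to 1656 (without HDL replicate 2). The ranges were 1861 to 4915 genes against baseline for cholesterol and 1263 to 4256 for HDL. Between HDL and cholesterol, dropping a baseline array equals fitting those groups alone (145), and without cholesterol replicate 2 the count was 138. With the replicate number as a block the counts were 392 (HDL against cholesterol), 3788 (cholesterol against baseline) and 3285 (HDL against baseline), and the calls among the 8 genes were the same. The labels do not say that a number pairs arrays, and deviations of same-numbered arrays correlated by 0.02, 0.01 and 0.13 across genes. Between HDL and cholesterol, the differences of Lum, Prelp and Bgn were not called. The smallest difference that 2 arrays a group could detect was not computed.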
